A study of Mus musculus with 20 samples.

Results

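Small intestinal expression of 34 genes for the last steps of protein digestion and for amino acid uptake was examined in mouse offspring. The genes were taken from a fixed list of symbols: 12 brush border membrane peptidases, enteropeptidase, 4 cytosolic peptidases, 1 peptide transporter, 8 apical amino acid transporters and 8 transporters of the basolateral or general cell membrane. They were 34 of the 55487 mouse genes in the deposited table. Of the 17464 genes with enough counts to be tested, 33 were members. The member left out was Folh1, glutamate carboxypeptidase II, with 1, 0, 1 and 0 counts over the 5 libraries of each group.

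PolyA RNA of small intestine tissue was sequenced in bulk from mouse offspring. Their dams either were controls or had periodontitis, an inflammatory disease of the tooth-supporting tissues. Each kind of pup was sampled at 2 and at 7 weeks of age, with 5 libraries in each of the 4 groups. The series was made to compare expression between these offspring. The labels give no strain, sex, litter, intestinal segment or pooling, nor do they say how periodontitis was brought about, so p-values measure the spread between these libraries, which may share litters. Offspring are called pups here at both ages, also at 7 weeks, and those of dams with periodontitis are called periodontitis pups.

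Dietary protein reaches the small intestine as peptides, which pancreatic proteases have shortened after enteropeptidase starts their activation. Peptidases anchored in the microvillus membrane of enterocytes cut these to free amino acids and very short peptides, which apical transporters then take up. Cytosolic peptidases split the absorbed peptides, and basolateral carriers pass amino acids to the blood, several of them as pairs of a light chain and a shared heavy chain. Mice pass from milk to solid food between the ages sampled here.

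Library depth was 14882204 to 42563229 counts. Levels are given as CPM, counts relative to the library total after TMM scaling. Log2 fold changes set periodontitis over control pups, or 7 weeks over 2 weeks, and carry their standard error (SE). A member is called changed at an adjusted p under 0.05 in edgeR's quasi-likelihood test over all genes tested. Enterocyte identity was plain in every library: the 7 enterocyte markers (Vil1, Alpi, Fabp2, Krt20, Epcam, Cdh1 and Krt8) summed to 5810 to 12344 CPM at 2 weeks and 15758 to 28390 CPM at 7 weeks. Control library 5 at 2 weeks stood apart. It had the fewest counts and 29.4% mitochondrial counts, against 3.99% to 9.15% in the other 19, and it held the lowest value of its age in 15 of 33 members and the highest in 8. Periodontitis library 5 of 7 weeks differed from its group as well and held the lowest value of its age in 22 of the 32 members that had counts there and the lowest enterocyte marker sum of that age. Such counts of lowest and highest values were not made over all genes, so they are not shown to be particular to the members. All 7-week libraries had Ddx3y at 29.2 CPM or more and Xist at 0.658 CPM or less, whereas at 2 weeks both genes varied widely within each kind of pup. Xist was then at 16.6 to 92.3 CPM in control and 0.71 to 137 CPM in periodontitis pups, and Ddx3y at 0 to 77.4 and 0.037 to 35 CPM. At 2 weeks Ddx3y was at 0 CPM in control library 1 and at 0.037 and 0.716 CPM in periodontitis libraries 1 and 4. Xist was at 92.3, 131 and 137 CPM in these libraries. Control libraries 2 to 5 had Xist at 28, 90, 70.5 and 16.6 CPM and Ddx3y at 26.5, 16.5, 16.1 and 77.4 CPM. Periodontitis libraries 2, 3 and 5 had Xist at 7.1, 0.71 and 7.58 CPM and Ddx3y at 30.7, 35 and 30.7 CPM. These sex-linked genes thus differed between the ages, so sex and age cannot be fully told apart. The part of sex in the differences between ages or dams was not tested.

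Per kilobase of merged exon, Anpep, aminopeptidase N, which removes neutral residues from the N-terminus of peptides, was the most abundant member in 3 of the 4 groups. Its level was 348 ± 87.7 CPM per kb in control pups at 2 weeks, 657 ± 58.8 in control pups at 7 weeks and 948 ± 289 in 7-week periodontitis pups (mean ± SD of 5 libraries). In periodontitis pups at 2 weeks it was 184 ± 62.6 CPM per kb, behind Naaladl1, a relative of glutamate carboxypeptidase II, at 251 ± 34.2 CPM per kb. Their ranges in that group overlapped, 110.3 to 263 for Anpep and 208 to 303 CPM per kb for Naaladl1. Naaladl1, Mep1b and Ace followed Anpep in control pups at 2 weeks, and Ggt1, Mep1b and Pepd in control pups at 7 weeks. In those control pups at 7 weeks Ggt1, with 350.3 ± 29.8 CPM per kb, and Mep1b, with 349 ± 48.7, did not differ beyond their spread. The carriers Slc1a1, Slc7a5, Slc7a6 and Slc6a14 were near the bottom in every group, with means of 3.66 CPM per kb or less.

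Promoter sequences of 5 members that the results turn on are shown here, from RefSeq on GRCm38.p6. They are the 250 bases before the transcript start, on the gene's own strand, 5′ to 3′, of the pair with the smallest p between dams at 2 weeks (Slc15a1 and Dpp4), of a gene that rose with age (Tmprss15) and of a pair that fell (Mep1a and Slc6a14). The Slc15a1 promoter lies at chr14:121505255-121505504 on the minus strand, that of Dpp4 at chr2:62412232-62412481 (minus), that of Tmprss15 at chr16:79091098-79091347 (minus), that of Mep1a at chr17:43502774-43503023 (minus) and that of Slc6a14 at chrX:21714650-21714899 (plus). Capitals mark matches, on either strand, to 5 short motifs.
Slc15a1: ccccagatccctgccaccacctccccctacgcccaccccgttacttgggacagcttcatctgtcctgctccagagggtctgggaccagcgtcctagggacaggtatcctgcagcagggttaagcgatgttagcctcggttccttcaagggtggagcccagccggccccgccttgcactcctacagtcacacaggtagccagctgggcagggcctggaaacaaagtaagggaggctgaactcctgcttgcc
Dpp4: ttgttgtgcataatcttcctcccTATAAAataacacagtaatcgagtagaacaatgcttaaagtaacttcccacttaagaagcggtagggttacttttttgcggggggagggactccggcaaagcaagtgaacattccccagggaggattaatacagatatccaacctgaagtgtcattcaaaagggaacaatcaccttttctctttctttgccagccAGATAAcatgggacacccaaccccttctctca
Tmprss15: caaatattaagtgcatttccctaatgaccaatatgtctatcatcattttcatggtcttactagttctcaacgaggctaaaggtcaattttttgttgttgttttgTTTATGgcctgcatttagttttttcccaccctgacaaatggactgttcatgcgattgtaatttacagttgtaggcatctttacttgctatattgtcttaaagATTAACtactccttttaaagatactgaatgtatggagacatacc
Mep1a: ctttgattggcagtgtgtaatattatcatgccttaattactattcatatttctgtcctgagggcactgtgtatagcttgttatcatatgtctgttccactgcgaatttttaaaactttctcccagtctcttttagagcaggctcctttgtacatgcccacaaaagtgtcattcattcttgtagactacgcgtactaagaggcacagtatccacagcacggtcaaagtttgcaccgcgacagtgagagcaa
Slc6a14: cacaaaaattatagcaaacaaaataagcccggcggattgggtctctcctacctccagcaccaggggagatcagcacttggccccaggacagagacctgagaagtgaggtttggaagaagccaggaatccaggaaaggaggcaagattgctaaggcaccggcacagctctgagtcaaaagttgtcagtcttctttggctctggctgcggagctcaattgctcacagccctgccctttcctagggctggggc
The motifs searched were the HNF1 motif GTTAAT, the GATA motif AGATAA, the CDX motif TTTATG, the HNF4 motif CAAAGTCC and the TATA box TATAAA, and none of their letters overlap in these windows. Dpp4 holds a match to the TATA box letters near the upstream end of its window, far from the transcript start, and a GATA motif close to that start. Tmprss15 holds a CDX motif and an HNF1 motif read on the other strand, and the windows of Slc15a1, Mep1a and Slc6a14 hold none of the 5. Promoters were found for 29 members. Of these 29, 6 had the HNF1 motif in at least 1 promoter, 6 the GATA motif, 1 the CDX motif, 3 the HNF4 motif and 5 the TATA box. Among all 32851 promoters the shares with a match were 6.43%, 9.99%, 10.8%, 1.2% and 12.4% in that order. A match describes letters only, and several members have more than 1 promoter, so the counts of members and the shares of promoters are not on the same footing.

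At 2 weeks, 8 of 11 membrane peptidases and the peptide transporter had lower fitted levels in periodontitis than in control pups, but no member passed the test. Of 33 members, 0 were called by edgeR, where 0.0286% of all genes were, and 7 by DESeq2, where 3.18% were. At an unadjusted p under 0.05 there were 12 members, against 14.4% of all genes. The log2 fold change was below 0 in 22 members, where 47.3% of all genes were below 0, and its median was -0.31 against 0.02 over all genes. By role, the median was -0.83 over 11 membrane peptidases, -0.21 over 4 cytosolic peptidases, -0.08 over 8 apical and -0.12 over 8 basolateral or general amino acid transporters. The members lower in every periodontitis library than in every control library were Anpep, Dpp4, Enpep, Lap3, Slc15a1, Slc7a8 and Slc16a10, 7 of 33 against 3.54% of all genes. Mep1a alone was higher without overlap, against 3.71% of all genes.

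**Figure D1:**
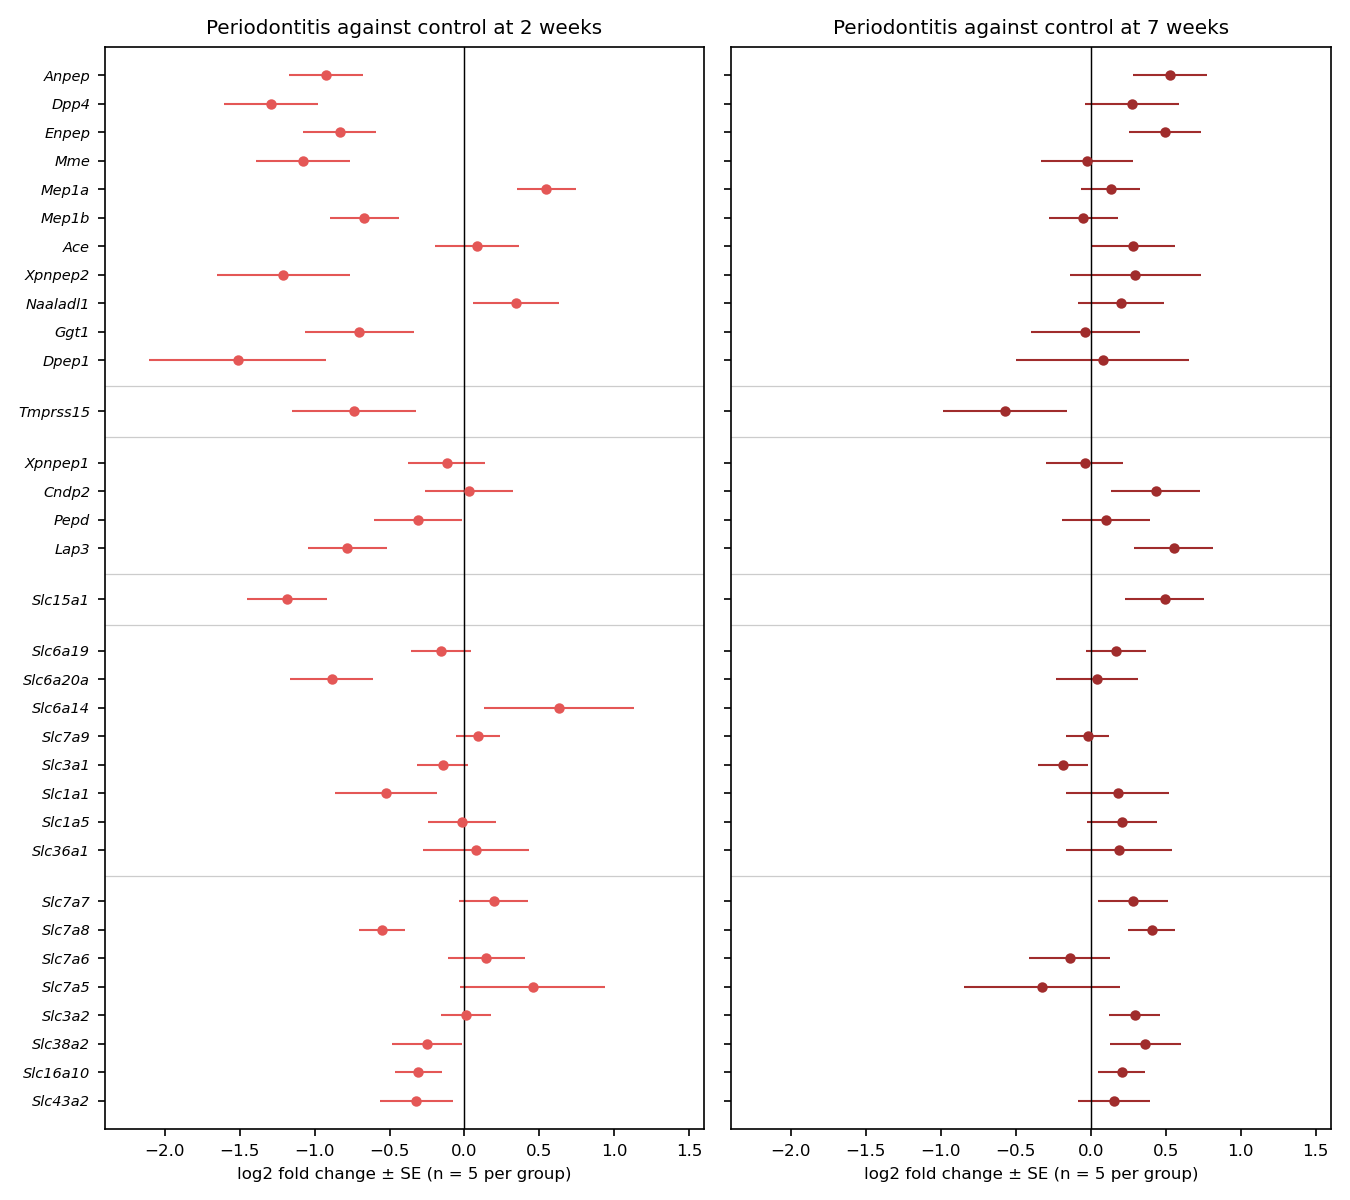
Log2 fold change of 33 members between periodontitis and control pups at 2 weeks (left) and 7 weeks (right), with its SE as bars; grey lines part the roles, and Slc6a14 has no point at 7 weeks because it had 0 counts. The 22 members left of the line at 2 weeks include 8 of 11 membrane peptidases, and 23 lie to the right of it at 7 weeks; no point passed the test.

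Among the brush border membrane peptidases, Dpp4 had the smallest p. Dpp4, dipeptidyl peptidase 4, clips dipeptides that end in proline or alanine and also inactivates incretin hormones. It had 221, 217, 215, 272 and 543 CPM in control libraries 1 to 5 and 176, 179, 94.6, 83.3 and 66.6 CPM in periodontitis libraries 1 to 5. The groups did not overlap, control library 5 was far above the other 4 controls, and periodontitis libraries 3 to 5 were lowest. This gave a log2 fold change of -1.29 ± 0.32 (SE; edgeR adjusted p = 0.073), and -0.95 without that control library (adjusted p = 0.12).

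Anpep followed, with 1173, 1160, 1215, 1701 and 1947 CPM in control and 960.0, 1089, 682, 613 and 456 CPM in periodontitis libraries 1 to 5. Every periodontitis library was below every control, and libraries 3 to 5 were again the lowest. Anpep had a log2 fold change of -0.92 ± 0.25 (edgeR adjusted p = 0.096). Enpep, aminopeptidase A, which removes acidic residues, had 376, 380.4, 391, 414 and 610.3 CPM in control and 339.7, 303, 202, 225 and 149 CPM in periodontitis libraries. These also did not overlap. Enpep thus had a log2 fold change of -0.83 ± 0.24 (edgeR adjusted p = 0.118).

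Mme, neprilysin, an endopeptidase that cuts inside peptide chains, had 184, 168, 183, 236 and 535 CPM in control and 149.6, 191, 108, 62.2 and 107 CPM in periodontitis libraries. Here the groups overlapped, since periodontitis library 2 was above 3 of the controls, and the mean of the controls was raised by library 5. Mme had a log2 fold change of -1.08 ± 0.31 (edgeR adjusted p = 0.118) and -0.64 without control library 5. Dpep1, the membrane dipeptidase, is shown because of its spread and was chosen after its values were seen. It had 136, 132, 134, 193 and 76.5 CPM in control and 100.2, 109, 11.7, 6.5 and 7.91 CPM in periodontitis libraries. Periodontitis libraries 1 and 2 were within the control range, and the other 3 were far below it. Dpep1 had a log2 fold change of -1.51 ± 0.59 (edgeR adjusted p = 0.25).

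The meprin subunits had differences of opposite sign. Mep1a, which encodes the alpha subunit of this metalloendopeptidase, had 340.1, 286, 312, 299 and 216 CPM in control and 480.3, 376, 374, 462 and 430.1 CPM in periodontitis libraries, without overlap. Mep1a had a log2 fold change of 0.55 ± 0.20 (edgeR adjusted p = 0.20). Mep1b, for the membrane-anchored beta subunit, had group means of 435 ± 87 and 274 ± 97.4 CPM (SD, n = 5 each) and a log2 fold change of -0.67 ± 0.23 (edgeR adjusted p = 0.19). Per kilobase, the ratio of Mep1b to Mep1a was 1.57 to 3.55 in the 5 control libraries and 0.532 to 1.31 in the 5 periodontitis libraries. The 2 ranges did not overlap.

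The remaining membrane peptidases were less even. Xpnpep2, membrane aminopeptidase P, which removes residues next to proline, had means of 63.8 ± 31.1 and 27.7 ± 22.3 CPM in control and periodontitis pups, with a log2 fold change of -1.21 ± 0.44 (edgeR adjusted p = 0.21). Ggt1, gamma-glutamyltransferase, which acts on glutathione, differed by -0.70 ± 0.37 (adjusted p = 0.39). Ace, the angiotensin-converting enzyme, which takes dipeptides from the C-terminus, differed by 0.08 ± 0.28, and Naaladl1 by 0.34 ± 0.29. Tmprss15, enteropeptidase, the protease that activates trypsinogen, differed by -0.74 ± 0.41 (edgeR adjusted p = 0.43).

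Slc15a1, the proton-coupled peptide transporter of the apical membrane, had the smallest p of all members. It had 104, 95.8, 108, 162 and 133 CPM in control and 69.9, 73.1, 43.1, 34.2 and 45 CPM in periodontitis libraries 1 to 5. No periodontitis library reached the lowest control, and here control library 4, not 5, was highest. Its log2 fold change was -1.18 ± 0.27 (edgeR adjusted p = 0.058). Of the cytosolic peptidases, Lap3, leucine aminopeptidase, had 152, 152, 145, 171 and 336 CPM in control and 125, 126, 112, 99.3 and 93.6 CPM in periodontitis libraries. The groups did not overlap, and control library 5 stood far above the other controls. Its log2 fold change of -0.78 ± 0.26 was -0.48 without that library. Xpnpep1 (cytosolic aminopeptidase P), Cndp2 (a dipeptidase) and Pepd (prolidase, which splits dipeptides ending in proline) differed by -0.12 ± 0.26, 0.03 ± 0.29 and -0.31 ± 0.29.

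Among the amino acid transporters, 2 had an unadjusted p under 0.05 at 2 weeks, Slc7a8 and Slc6a20a. Slc7a8, a basolateral exchanger of neutral amino acids, had 163, 163, 189, 206 and 151 CPM in control and 138, 149.8, 106, 96.9 and 105 CPM in periodontitis libraries. The groups were only just apart, with control library 5 next to periodontitis library 2. Its log2 fold change was -0.55 ± 0.16 (edgeR adjusted p = 0.11). Slc6a20a, a proline transporter, had means of 116 ± 23.1 and 63 ± 32.2 CPM and a log2 fold change of -0.89 ± 0.27 (edgeR adjusted p = 0.14). Reads of its near copy Slc6a20b could be split with it, but that gene had only 1.5 ± 0.89 and 0.712 ± 0.53 CPM.

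The main apical carrier of neutral amino acids, Slc6a19, had 302 ± 37.7 CPM in control pups against 271 ± 16.3 CPM in periodontitis pups, a log2 fold change of -0.16 ± 0.20. The cystine and dibasic amino acid carrier, formed by Slc7a9 with the heavy chain Slc3a1, differed by 0.09 ± 0.14 and -0.15 ± 0.17. The glutamate carrier Slc1a1 differed by -0.52 ± 0.34, the glutamine carrier Slc1a5 by -0.02 ± 0.23, the proton-coupled carrier Slc36a1 by 0.08 ± 0.36 and the broad carrier Slc6a14 by 0.63 ± 0.50. Of the carriers that use the heavy chain Slc3a2, itself at 0.01 ± 0.17, Slc7a7 differed by 0.19 ± 0.23, Slc7a6 by 0.14 ± 0.26 and Slc7a5 by 0.46 ± 0.48. Slc38a2, a sodium-coupled carrier, Slc16a10, which carries aromatic amino acids, and Slc43a2, a carrier of large neutral amino acids, differed by -0.25 ± 0.23, -0.31 ± 0.16 and -0.32 ± 0.24.

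**Figure D2:**
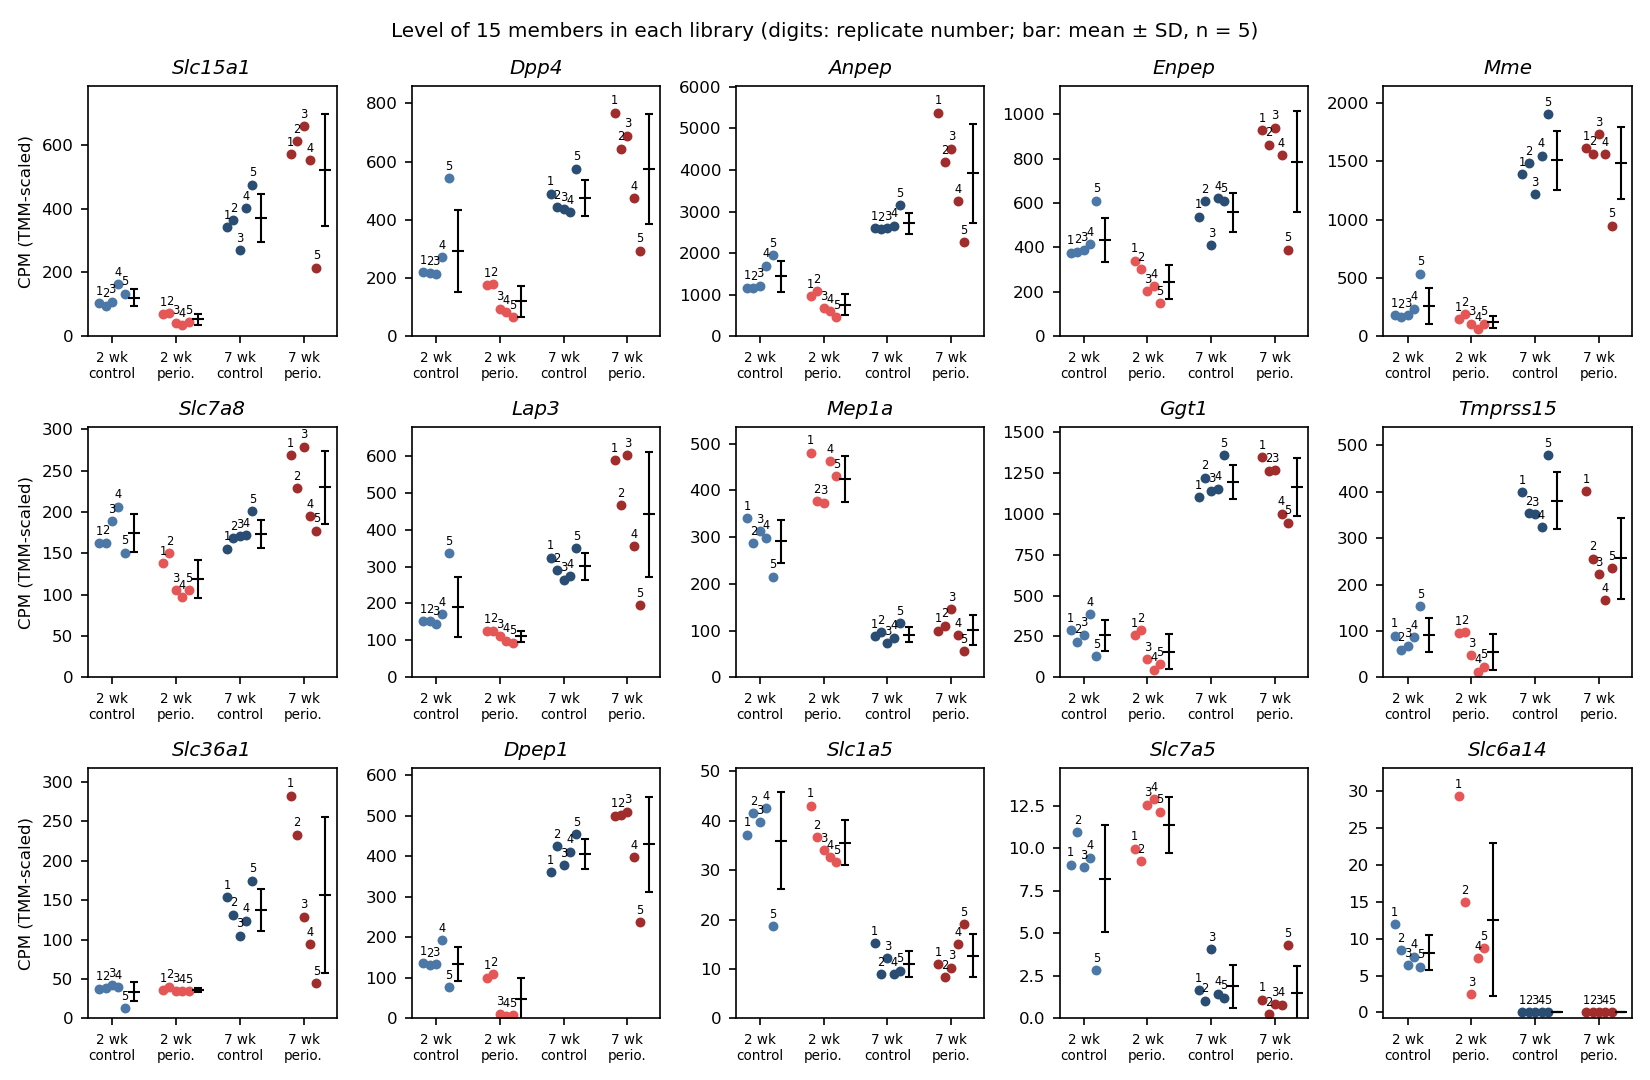
CPM of 15 members in each library on linear axes, with points numbered by replicate and the mean ± SD (n = 5) as a black bar beside each group. At 2 weeks Slc15a1 lies at 34.2 to 73.1 CPM in periodontitis and 95.8 to 162 CPM in control pups, while Slc6a14 is at 0 in all 10 libraries at 7 weeks.

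The periodontitis libraries at 2 weeks were not alike. Libraries 3, 4 and 5 were below all 5 controls in 17, 16 and 17 of 33 members, and libraries 1 and 2 in 9 and 8. The same counts were not made over all genes, so they are not shown to be particular to the members. The enterocyte marker sum was 7547, 5810 and 7089 CPM in libraries 3 to 5, 10854 and 10263 CPM in libraries 1 and 2, and 8187 to 12344 CPM in the controls, with 7 of 7 markers at a log2 fold change below 0 and 0 called. The sum of 5 distal intestine markers was 420, 309 and 326 CPM in libraries 3 to 5, 962 and 870 CPM in libraries 1 and 2, and 649 to 1049 CPM in the controls. Among these, Fabp6, an ileal bile acid binding protein, was at 17.5, 2.92 and 8.07 CPM in libraries 3 to 5. It was at 197 CPM or more in the other 7. Slc10a2 was also lowest in libraries 3 to 5, at 1.36, 2.44 and 1.41 CPM, and so was Slc51b, at 59.7, 44.9 and 42.3 CPM. Fgf15, at 75, 55.2 and 57.5 CPM, was not below the controls, at 39.5 to 65 CPM. Slc51a, at 266, 203 and 217 CPM, was within the control range of 95.6 (library 5) to 338 CPM. Of the 5 distal markers, 2 had a log2 fold change above 0. The sum of 5 proximal markers was 1909 to 3637 CPM in periodontitis and 3162 to 4007 CPM in control pups. Of these, Cybrd1 was at 70.5, 58.1 and 103 CPM in libraries 3 to 5 and at 492 CPM or more in the other 7. The sum of 6 hepatocyte markers was 39.8 to 186 and 16.2 to 43 CPM. It was mostly Serpina1a (means of 67.1 and 13 CPM) and Ttr (42.5 and 14.9 CPM). Fga and Fgb were higher in periodontitis pups as well. Alb, at 0.10 and 0.13 CPM, and Apoh, at 0.38 and 0.39 CPM, were low and not higher. The sum of 5 smooth muscle markers was 1904, 2877 and 2436 CPM in libraries 3 to 5, 884 and 1700 CPM in libraries 1 and 2, and 1415 to 1883 CPM in the controls. That of 5 adipocyte markers was low throughout, 0.32 to 1.21 CPM in periodontitis and 1.29 to 7.15 CPM in control pups, without overlap. The part of segment, of enterocyte content and of other tissue in the lower member levels was not tested. In bulk tissue, fewer cells of a type and less RNA per cell cannot be told apart.

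**Figure D3:**
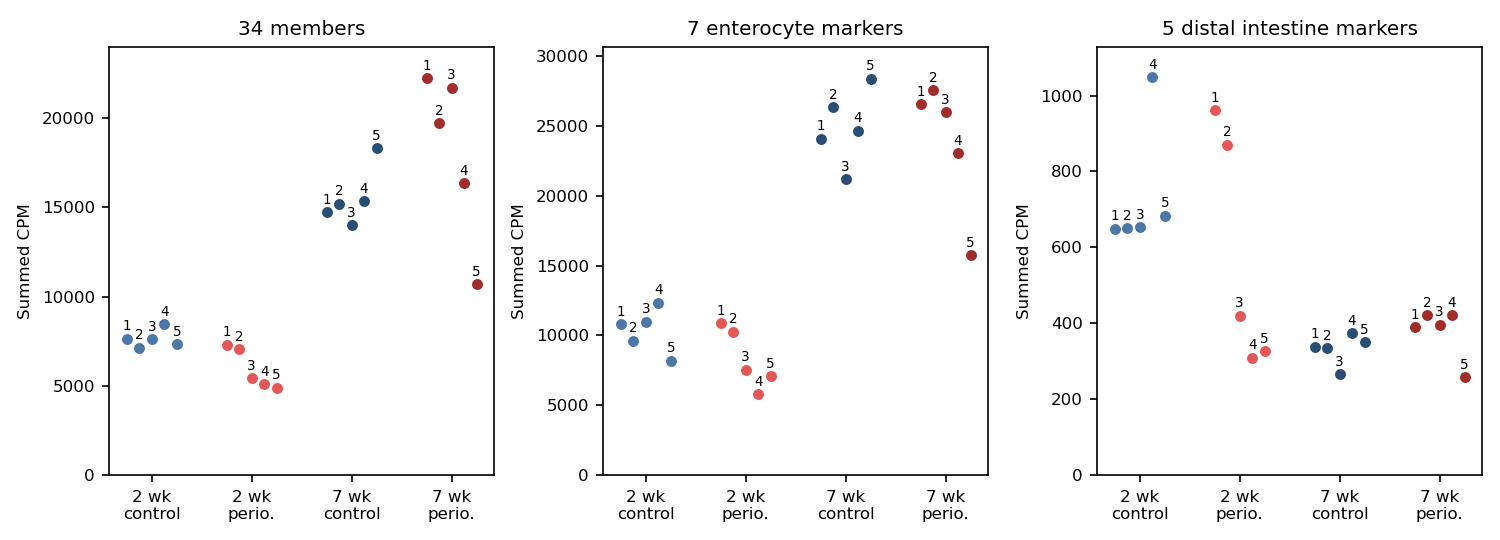
Summed CPM of the 34 members, of 7 enterocyte markers and of 5 distal intestine markers in each library, numbered by replicate. Periodontitis libraries 3 to 5 at 2 weeks are low in all 3 panels, with 4888 to 5407 CPM for the members, and periodontitis library 5 at 7 weeks is the lowest of its age in all 3.

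The 2-week result depended on how libraries were scaled and on which entered. With libraries scaled to the 7 enterocyte markers, the median of all genes moved to 0.41 and that of the members to 0.04. In that scaling Slc15a1 (-0.90) and Dpp4 (-1.11) were called lower and Mep1a (0.95) was called higher, with edgeR adjusted p of 0.025, 0.040 and 0.022. Of all genes, 0.309% were called lower and 2.24% higher in that scaling. Relative to the median of all genes, the members' median was -0.33 with TMM and -0.37 with enterocyte scaling. DESeq2 called 7 members lower (Slc15a1, Dpp4, Anpep, Slc7a8, Mme, Enpep and Slc6a20a), where 1.85% of all genes were called lower. In edgeR, leaving out periodontitis library 2 gave 6 calls, all lower, against 1.21% of all genes called lower. Leaving out periodontitis library 1 gave 1 lower call (0.225% of all genes) and leaving out periodontitis library 5 of 7 weeks gave 2 (0.315%), while each of the other 17 libraries left out gave 0. Without control library 5 at 2 weeks and periodontitis library 5 at 7 weeks together, Slc15a1 (-1.15), Dpp4 (-0.95) and Slc7a8 (-0.60) were called, against 0.837% of all genes called lower.

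At 7 weeks the levels of most members were a little higher in periodontitis pups, and again 0 of 33 were called by edgeR or by DESeq2, where 0.0115% and 0.152% of all genes were. An unadjusted p under 0.05 was reached by 3 members, against 3.33% of all genes. The log2 fold change was above 0 in 23 members, where 54.7% of all genes were above 0, with a median of 0.18 against 0.02 over all genes. No member had groups without overlap, where 0.527% of all genes did.

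Slc7a8 had the smallest p, with 156, 168, 171, 172 and 201 CPM in control and 269, 229, 279, 195 and 178 CPM in periodontitis libraries 1 to 5. Periodontitis libraries 1 to 3 were above all controls, and 4 and 5 were among them. Its log2 fold change was 0.41 ± 0.16 (edgeR adjusted p = 1). Anpep had 2594, 2583, 2595, 2657 and 3147 CPM in control and 5380, 4185, 4516, 3249 and 2270 CPM in periodontitis libraries, and 4 of the latter were above all controls while library 5 was below them. Anpep differed by 0.53 ± 0.25, and 0.68 without that library (edgeR adjusted p = 0.33).

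Lap3 had 324, 290.4, 264, 274 and 351 CPM in control and 587, 466, 601, 356 and 196 CPM in periodontitis libraries. Enpep had 538, 608, 411, 623 and 610.1 CPM in control and 928, 862, 938, 815 and 389 CPM in periodontitis libraries. In both genes periodontitis libraries 1 to 4 were above all controls and library 5 was below all of them. Their log2 fold changes were 0.55 ± 0.26 and 0.50 ± 0.24 (edgeR adjusted p = 1 each). Without control library 5 at 2 weeks and periodontitis library 5 at 7 weeks together, Lap3 (0.75 ± 0.14) and Cndp2 (0.66 ± 0.12) were called higher (edgeR adjusted p = 0.027 each), as were 0.0848% of all genes.

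Slc15a1 showed the same shape, with 342, 363, 270.1, 402 and 475 CPM in control and 569.8, 612, 658, 552 and 215 CPM in periodontitis libraries at 7 weeks. Library 5 of the periodontitis pups was below all controls and the other 4 above all of them. The log2 fold change was 0.49 ± 0.26, and 0.70 without library 5 (edgeR adjusted p = 0.29). Dpp4 had 490.1, 443, 437, 427 and 576 CPM in control and 768, 644, 689, 475 and 294 CPM in periodontitis libraries, with a log2 fold change of 0.27 ± 0.31. Its groups overlapped, with periodontitis libraries 1 to 3 above all controls and library 5 below them. Tmprss15 had the most negative value of the 33, -0.57 ± 0.41. The other members ranged from -0.32 (Slc7a5) to 0.43 (Cndp2). Periodontitis library 5 was below all 5 controls in 24 of 33 members, and libraries 1 to 4 in 1 to 9. The shares of all genes below the controls in these libraries were not computed. Its enterocyte sum was 15758 CPM against 21174 to 28390 CPM in the other 9 libraries of that age, and the sum of 5 adipocyte markers was 12.8 to 50.8 CPM in periodontitis libraries 1 to 4 and at most 1.53 CPM in library 5 and the controls. The part of these in the differences was not tested.

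The change of the dam difference between the ages was tested directly. It was called in 0 of 33 members, where 0.0229% of all genes were called, and 10 members had an unadjusted p under 0.05, against 8.80% of all genes. The 6 members with the largest sizes among those 10 were Slc15a1 (1.68 ± 0.38), Dpp4 (1.57 ± 0.44), Xpnpep2 (1.5 ± 0.62), Anpep (1.45 ± 0.35), Lap3 (1.33 ± 0.37) and Enpep (1.33 ± 0.34), and in each of the 6 the log2 fold change was below 0 at 2 weeks and above 0 at 7 weeks. Slc7a8 (0.96 ± 0.22) and Slc15a1 had the smallest edgeR adjusted p, 0.186 each. Leaving out periodontitis library 5 of 7 weeks gave 4 calls (Slc15a1, Enpep, Anpep and Lap3), with edgeR adjusted p from 0.011 to 0.0499, where 0.146% of all genes were called, and no other single library left out gave a call. DESeq2 called Slc7a8, Slc15a1, Anpep and Enpep, 4 of 33 against 0.331% of all genes.

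More members were called between ages than between dams. From 2 to 7 weeks in control pups, 26 of 33 members were called by edgeR, against 61.5% of all genes: 19 rose, against 27.1% of all genes, and 7 fell, against 34.4%. In periodontitis pups 30 were called, against 66.1% of all genes, with 24 rises (30.4% of all genes) and 6 falls (35.7%). Groups did not overlap in 17 rises and 4 falls in control pups, where 22.5% and 23.2% of all genes did the same, and in 20 and 6 in periodontitis pups, against 24.9% and 28.3%. The enterocyte markers also rose with age, 7 of 7 in control and 6 of 7 in periodontitis pups. All 5 fibroblast markers fell in both kinds of pup, from sums of 1135 to 3281 CPM at 2 weeks to 172 to 455 CPM at 7 weeks, and so did 4 of 5 smooth muscle markers, from sums of 884 to 2877 CPM to 401 to 1171 CPM. Of the 4 adipocyte markers tested, 3 fell in control and 3 rose in periodontitis pups. The part of these cell types and of sex in the age differences was not tested, also for Xpnpep2 and Slc6a14, which lie on chromosome X. The directions moved with the scaling: with total counts in place of TMM 10 members rose and 10 fell in control pups, where 9.46% of all genes rose and 56.8% fell. With enterocyte scaling 4 rose and 17 fell, where 3.86% of all genes rose and 76.1% fell. In periodontitis pups 18 rose and 8 fell with total counts, against 11.5% and 59.8% of all genes, and 10 rose and 14 fell with enterocyte scaling, against 4.47% and 80.1%. The median log2 fold change was 0.70 in control and 1.52 in periodontitis pups with TMM, also with Slc6a14 set to its bound, where all genes had -0.13 and -0.11. All genes moved to -0.79 and -0.88 with total counts and to -1.40 and -1.63 with enterocyte scaling. Relative to all genes the members' median was 0.83 to 0.89 higher in control pups and 1.54 to 1.63 higher in periodontitis pups under these scalings and DESeq2's size factors.

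**Figure D4:**
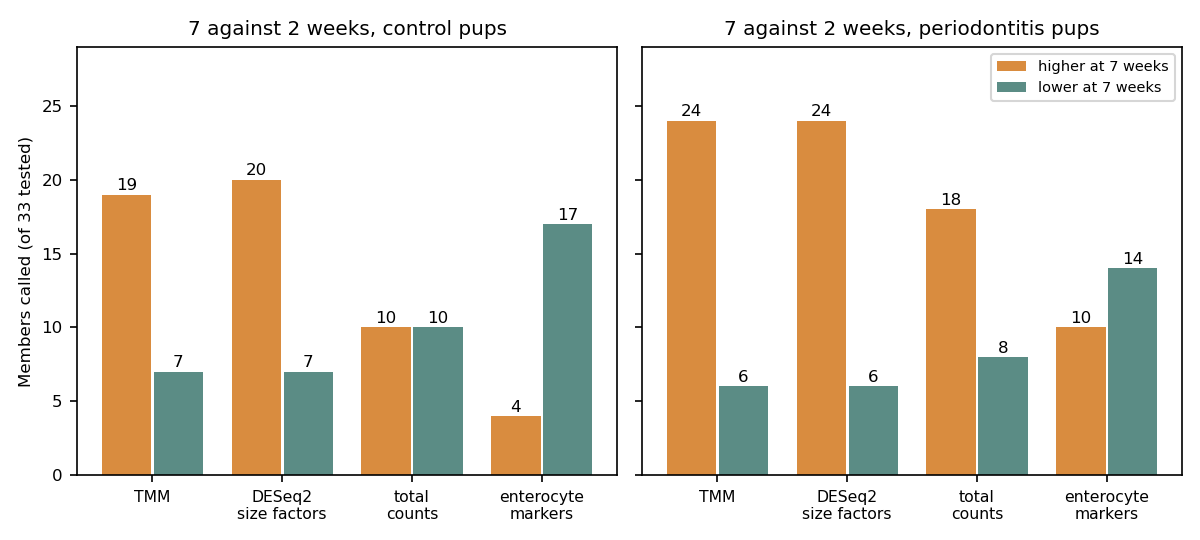
Number of the 33 tested members called higher or lower at 7 than at 2 weeks in edgeR under 4 scalings of library size, in control pups (left) and periodontitis pups (right). Rises outnumber falls 19 to 7 in control pups with TMM, are level at 10 and 10 with total counts and are outnumbered 4 to 17 with enterocyte scaling.

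Some members kept 1 direction and passed the test under all 4 scalings. In control pups these were 4 rises (Mme, Ggt1, Pepd and Slc36a1) and 7 falls (Mep1a, Naaladl1, Slc6a14, Slc1a1, Slc1a5, Slc7a6 and Slc7a5). In periodontitis pups there were 10 rises and 6 falls, and 3 of the rises (Mme, Ggt1 and Pepd) and 6 of the falls were shared with control pups. The share of all genes that passed under all 4 scalings was not computed. For rises it is at most 3.86% in control and 4.47% in periodontitis pups, the shares called higher with enterocyte scaling. For falls it is at most 34.4% and 35.7%, the shares called lower with TMM, so the falls are not shown to be particular to the members.

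Among the membrane peptidases, Mme rose most. At 7 weeks it had 1389, 1483, 1220, 1546 and 1904 CPM in control and 1611, 1564, 1730, 1561 and 948 CPM in periodontitis libraries 1 to 5, against the 2-week values given before. Every 7-week library was above every 2-week library, by a wide gap. The log2 fold change was 2.53 ± 0.33 in control and 3.58 ± 0.34 in periodontitis pups (edgeR adjusted p = 3.7e-06 and 6.7e-08).

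Ggt1 had 287, 217, 261, 386 and 128 CPM in control pups at 2 weeks and 1100, 1220, 1142, 1153 and 1360 CPM at 7 weeks. In periodontitis pups it had 259.7, 288, 112, 47.7 and 79.2 CPM at 2 weeks and 1345, 1264, 1265, 1002 and 946 CPM at 7 weeks. The ages did not overlap, and periodontitis libraries 3 to 5 had the lowest levels of all at 2 weeks. The rises were 2.22 ± 0.38 and 2.89 ± 0.39 on the log2 scale (edgeR adjusted p = 6.6e-05 and 3.7e-06).

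Mep1a fell while Mep1b rose with TMM scaling. Mep1a had 88.5, 96, 72.6, 85 and 116 CPM in control and 99.8, 110.5, 145, 90 and 56.3 CPM in periodontitis libraries at 7 weeks, all below the lowest 2-week library. Its log2 fold change was -1.67 ± 0.20 in control and -2.08 ± 0.20 in periodontitis pups (edgeR adjusted p = 1.7e-06 and 8.9e-08). Mep1b rose by 1.07 ± 0.23 and 1.69 ± 0.24 with TMM, but differed by -0.23 in control pups with enterocyte scaling. The ratio of Mep1b to Mep1a per kilobase, which does not depend on scaling, was 10.8 to 16.5 in control and 8.98 to 16.1 in periodontitis pups at 7 weeks. It thus lay above the highest 2-week value of 3.55 in all 10 libraries.

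Naaladl1 fell by 0.73 ± 0.29 on the log2 scale in control and by 0.87 ± 0.29 in periodontitis pups (edgeR adjusted p = 0.033 and 0.012). The call in control pups was lost, with adjusted p up to 0.074, when any of control libraries 1 to 4 of either age was left out, while leaving out control library 5 of 2 weeks gave -0.95 (adjusted p = 0.00084). Dpep1 rose by 1.6 ± 0.59 in control pups (adjusted p = 0.025), and this was lost without that same library (1.45, adjusted p = 0.053). In periodontitis pups Dpep1 rose by 3.19 ± 0.63. With enterocyte scaling Dpep1 was at 0.36 in control and 1.91 in periodontitis pups, and in control pups it did not pass under all 4 scalings. Anpep rose by 0.92 ± 0.25 and 2.37 ± 0.26 with TMM, and in control pups it differed by -0.39 with enterocyte scaling. Ace rose by 0.85 ± 0.28 and 1.04 ± 0.28, with -0.40 and -0.60 under enterocyte scaling.

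Dpp4, Enpep and Xpnpep2 were called in periodontitis pups alone (2.26 ± 0.33, 1.69 ± 0.25 and 1.07 ± 0.44), against 0.69 ± 0.31, 0.36 ± 0.24 and -0.43 ± 0.44 in control pups, and the difference between the pups was not called by edgeR in any of them, although that of Enpep was called by DESeq2 and without periodontitis library 5 of 7 weeks. With enterocyte scaling Dpp4 and Enpep differed by -0.66 and -0.97 in control pups and Xpnpep2 by -0.35 in periodontitis pups. The Xpnpep2 call was lost, with edgeR adjusted p up to 0.098, without any 1 of periodontitis libraries 1, 2 and 3 at 7 weeks or 3, 4 and 5 at 2 weeks. Dpp4 passed in control pups at 1.04 (adjusted p = 0.0033) without control library 5 of 2 weeks and, at 0.68 (adjusted p = 0.042), without periodontitis library 5 of 7 weeks. It also passed without periodontitis library 5 of 2 weeks.

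Tmprss15 had 90.1, 59.8, 67.9, 87 and 153 CPM at 2 weeks and 398, 353, 351, 323 and 479 CPM at 7 weeks in control pups. In periodontitis pups it had 94.8, 96.6, 47.7, 12.1 and 23.1 CPM at 2 weeks and 401, 256, 222, 167 and 235 CPM at 7 weeks. The ages were apart in both kinds of pup, and periodontitis libraries 4 and 5 were the lowest at 2 weeks. The rises were 2.06 ± 0.43 and 2.22 ± 0.43 on the log2 scale (edgeR adjusted p = 0.00039 and 0.00016). Tmprss15 was at 0.72 and 0.89 with enterocyte scaling, and in control pups it did not pass under all 4 scalings. Pancreatic acinar markers, among them the trypsinogen gene Prss2, were measured beside it. Their 8 genes summed to 150 to 1687 CPM at 2 weeks and 5.52 to 11.5 CPM at 7 weeks, and 8 of 8 fell with age in both kinds of pup.

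All 4 cytosolic peptidases had positive age differences with TMM. Pepd rose by 1.90 ± 0.30 in control and 2.31 ± 0.31 in periodontitis pups, and Cndp2 by 1.18 ± 0.30 and 1.58 ± 0.30, although Cndp2 was at -0.06 and -0.03 with enterocyte scaling. Lap3 rose by 0.65 ± 0.26 in control pups (edgeR adjusted p = 0.036) and by 1.99 ± 0.27 in periodontitis pups, with -0.70 in control pups under enterocyte scaling. The control call of Lap3 was lost, with adjusted p up to 0.085, without any 1 of control libraries 1 to 4 at 2 weeks or 1 and 5 at 7 weeks. Xpnpep1, at 0.44 ± 0.26 and 0.52 ± 0.26, was not called with TMM. It passed in periodontitis pups without control library 5 of 2 weeks (0.52, edgeR adjusted p = 0.022), and with enterocyte scaling it was called lower in both kinds of pup (-0.77 and -0.99).

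The peptide transporter Slc15a1 rose by 1.62 ± 0.27 in control and by 3.30 ± 0.29 in periodontitis pups (edgeR adjusted p = 5.1e-05 and 2.5e-08), from the library values given before. Its 7-week libraries were all above its 2-week libraries, with the lowest at 215 CPM against a highest of 162 CPM. With enterocyte scaling the values were 0.33, not called, and 1.76, called.

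**Figure D5:**
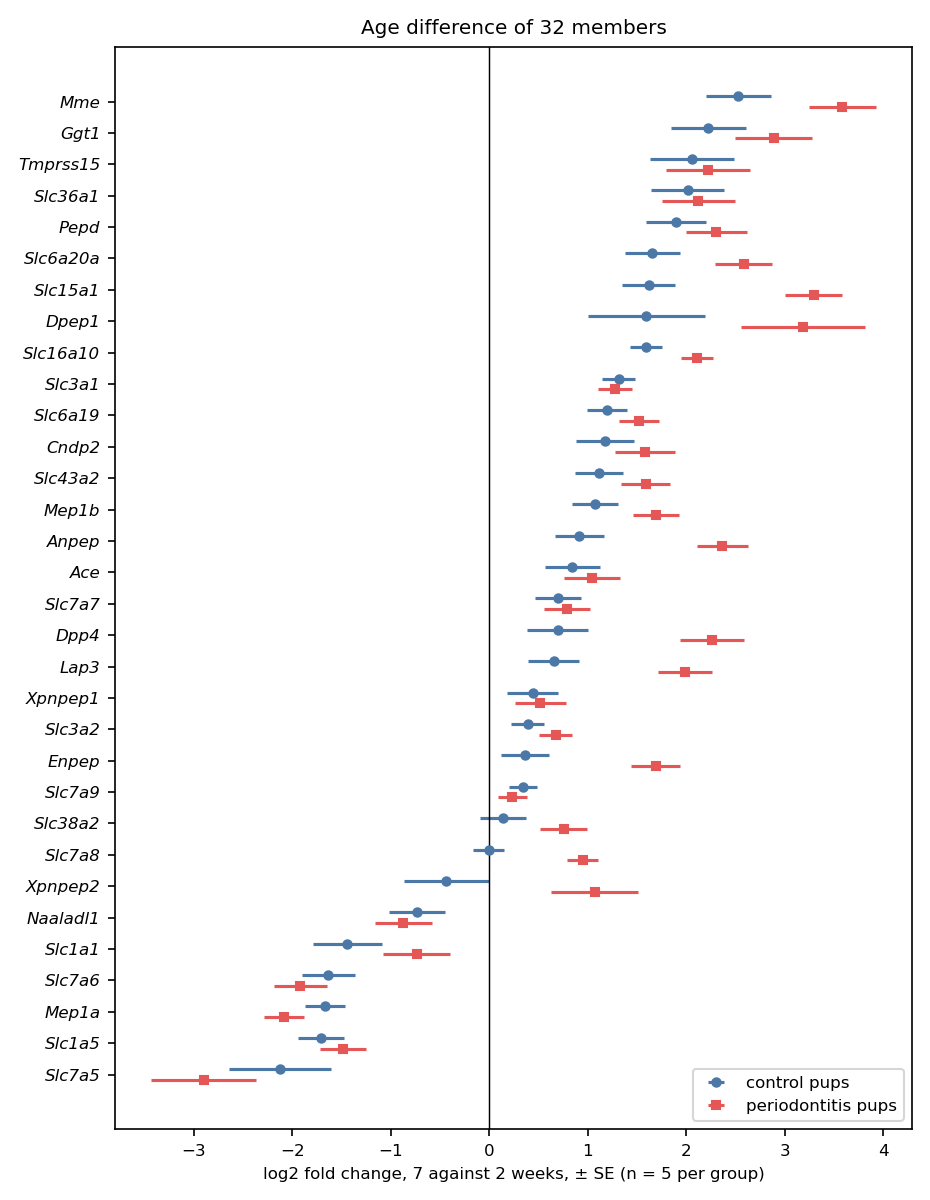
Log2 fold change from 2 to 7 weeks with its SE for 32 members in control pups (circles) and periodontitis pups (squares), TMM scaling, ordered by control pups; Slc6a14, at 0 counts at 7 weeks, is left out. Mme is at the top with 2.53 and 3.58 and Slc7a5 at the bottom with -2.12 and -2.90, and 14 control and 11 periodontitis values change sign with enterocyte scaling.

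Apical amino acid transporters moved in both directions. Slc36a1 had 37.7, 38.2, 42, 39.1 and 13 CPM at 2 weeks and 153, 131, 105, 124 and 175 CPM at 7 weeks in control pups. In periodontitis pups it had 36, 40.3, 35, 34.3 and 34.3 CPM at 2 weeks and 283, 233, 129, 94.2 and 44.7 CPM at 7 weeks. The ages were well apart in control pups, whereas periodontitis library 5 at 7 weeks was close to the 2-week range. The rises were 2.01 ± 0.37 and 2.12 ± 0.37 (edgeR adjusted p = 0.00012 and 5.7e-05). Slc36a1 was at 0.78 and 0.45 with enterocyte scaling, and in periodontitis pups it did not pass under all 4 scalings.

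Slc6a14 had 11.9, 8.42, 6.37, 7.57 and 6.2 CPM in control and 29.3, 15, 2.44, 7.37 and 8.74 CPM in periodontitis libraries at 2 weeks, and 0 counts in all 10 libraries at 7 weeks. The 2-week groups held 1683 and 3214 counts. With 3 counts per group taken as the floor, Slc6a14 was at least 355-fold lower at 7 weeks in control and at least 521-fold lower in periodontitis pups (edgeR adjusted p = 6.5e-06 and 2.5e-06). Floors cover counting error only. The spread at 2 weeks was wide in periodontitis pups, where library 1 was highest and library 3 lowest.

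Slc1a5 had 37.2, 41.5, 39.7, 42.5 and 18.7 CPM at 2 weeks and 15.2, 8.97, 12.2, 8.99 and 9.66 CPM at 7 weeks in control pups. In periodontitis pups it had 43, 36.7, 34, 32.7 and 31.6 CPM at 2 weeks and 10.9, 8.34, 10.3, 15 and 19.1 CPM at 7 weeks. The ages did not overlap within either kind of pup, and control library 5 at 2 weeks was the lowest of that age. The falls were -1.71 ± 0.24 and -1.48 ± 0.24 on the log2 scale (edgeR adjusted p = 7.8e-06 and 2.1e-05).

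Slc1a1 fell in control pups (-1.44 ± 0.35, edgeR adjusted p = 0.0015), while in periodontitis pups it was at -0.74 ± 0.34 (adjusted p = 0.065). Without periodontitis library 5 of 7 weeks, which had 20.5 CPM against 5.22 to 7.23 CPM in its group, that value was -1.34 (adjusted p = 0.0002). It also passed without periodontitis library 3 or 5 of 2 weeks. Slc6a20a rose by 1.65 ± 0.28 and 2.58 ± 0.29 and Slc6a19 by 1.20 ± 0.20 and 1.52 ± 0.21 with TMM, and Slc6a19 was at -0.09 in both kinds of pup with enterocyte scaling. Slc6a20a was then at 0.34 and 1.22, and in control pups it did not pass under all 4 scalings.

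The heavy chain Slc3a1 rose by 1.31 ± 0.17 and 1.28 ± 0.17, with 0.03 and -0.31 under enterocyte scaling, and its partner Slc7a9 by 0.34 ± 0.14 in control pups (edgeR adjusted p = 0.044), while it was at 0.23 ± 0.14 in periodontitis pups. The Slc7a9 call was lost in 13 of the 20 fits that left out 1 library, with adjusted p up to 0.12, and Slc7a9 was at -0.35 and -0.57 with total counts and was called lower in both kinds of pup, at -0.92 and -1.34, with enterocyte scaling. Per kilobase, the ratio of Slc3a1 to Slc7a9 was 0.85 to 1.40 in the 10 libraries of 2 weeks and 1.61 to 2.89 in the 10 of 7 weeks. The ranges did not overlap, and the ratio does not depend on scaling.

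Among basolateral and general carriers, the light chains Slc7a5 and Slc7a6 fell in both kinds of pup, whereas Slc7a7 rose with TMM and was below 0 with enterocyte scaling. Slc7a5, a carrier of large neutral amino acids found in many dividing cells, had 9.03, 10.9, 8.87, 9.44 and 2.82 CPM at 2 weeks and 1.66, 1.03, 4.07, 1.44 and 1.21 CPM at 7 weeks in control pups. In periodontitis pups it had 9.97, 9.23, 12.6, 12.9 and 12.1 CPM at 2 weeks and 1.1, 0.256, 0.831, 0.81 and 4.31 CPM at 7 weeks. The ages overlapped in control pups, where 2-week library 5 was below 7-week library 3, and were apart in periodontitis pups. The falls were -2.12 ± 0.51 and -2.90 ± 0.53 (edgeR adjusted p = 0.0015 and 9.5e-05).

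Slc7a6, a carrier of basic and neutral amino acids, fell by 1.63 ± 0.27 and 1.92 ± 0.27 on the log2 scale. Slc7a7, the enterocyte carrier of the same class, rose by 0.70 ± 0.23 and 0.79 ± 0.23 with TMM, but was at -0.52 and -0.80 with enterocyte scaling. The ratio of Slc7a7 to Slc7a6 per kilobase went from 19.5 to 31.8 over the 10 libraries of 2 weeks to 88.1 to 272 over the 10 of 7 weeks. Slc7a8 was at -0.01 ± 0.15 in control pups and rose by 0.95 ± 0.16 in periodontitis pups with TMM, with -1.27 and -0.58 under enterocyte scaling.

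Slc16a10 rose by 1.59 ± 0.16 and 2.11 ± 0.16 and Slc43a2 by 1.11 ± 0.24 and 1.59 ± 0.25 with TMM, with Slc43a2 at -0.12 in control pups under enterocyte scaling. Slc16a10 was then at 0.31 and 0.54, and in control pups it did not pass under all 4 scalings. The shared heavy chain Slc3a2 was at 0.39 ± 0.17 in control pups (edgeR adjusted p = 0.051) and rose by 0.67 ± 0.17 in periodontitis pups, with -0.33 and -0.13 with total counts and, called lower in both, -0.85 and -0.89 with enterocyte scaling. In control pups Slc3a2 passed without control library 1 of 7 weeks or 4 of 2 weeks (adjusted p down to 0.041). Slc38a2 was at 0.14 ± 0.23 in control and rose by 0.76 ± 0.24 in periodontitis pups, with -0.53 and -0.07 with total counts and, called lower in both, -1.15 and -0.83 with enterocyte scaling.

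Some of these values may hold reads of overlapping genes, since the sources used here do not say whether reads were counted by strand. Exons of Slc1a1 share 2631 bases with 4430402I18Rik on the other strand, those of Slc43a2 share 922 with Gm45606, those of Slc3a1 share 601 with Prepl and those of Slc6a20a share 563 with Gm17120. For Ace, Dpp4 and Slc7a7 the overlaps were 232 to 295 bases. Reads from these stretches cannot be told apart without strand.

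A wider list of peptidases and one of transporters put the members beside their pathway. For both lists, the shares of all genes were 27.1% rising and 34.4% falling with age in control pups, and 30.4% and 35.7% in periodontitis pups. Of 32 other peptidases tested, 6 rose and 11 fell with age in control pups, and 9 rose and 14 fell in periodontitis pups. Naalad2 (-3.26 ± 0.34) and the lysosomal peptidases Tpp1 (-1.30 ± 0.17) and Dpp7 (-1.73 ± 0.29) were among the falls in control pups. Of 28 other amino acid and peptide transporters, 2 rose and 13 fell in control pups, and 5 rose and 17 fell in periodontitis pups, with Slc38a3 (-4.11 ± 0.52), Slc38a5 (-3.86 ± 0.45) and Slc43a1 (-3.10 ± 0.38) falling in control pups. Between dams 0 genes of either list were called at either age by edgeR, where 0.0286% of all genes were at 2 weeks and 0.0115% at 7 weeks. At 2 weeks 14 of the 32 peptidases and 5 of the 28 transporters had an unadjusted p under 0.05, against 14.4% of all genes. At 7 weeks 0 and 2 had, against 3.33% of all genes. The smallest adjusted p at 2 weeks, 0.054, was that of Dpp7 (1.42 ± 0.28) and of the sodium-coupled carrier Slc38a6 (0.90 ± 0.18), both higher in periodontitis pups.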

How the data were processed

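The authors deposited a table of expected counts, all whole, of each gene in 20 libraries of polyA RNA. Per the submitters' processing notes, reads were handled with cutadapt 4.8, FastQC 0.11.8, STAR 2.7.8a and RSEM 1.3.3, and the builds GRCh38 and GRCm38 are named; the annotation release and strandedness are not given in the sources used here. Of the gene IDs, 55227 matched GENCODE M21 on GRCm38, which gave exon lengths and overlaps.

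Rounding changed 0 values. In R 4.3.3 with edgeR 4.0.16, filterByExpr kept 17464 genes and removed at most 0.0838% of a library's counts. A group mean was fitted to all 20 libraries with TMM and robust quasi-likelihood dispersion (16 residual degrees of freedom), with Benjamini-Hochberg adjustment across the genes kept and calls at 0.05. Each SE was taken as the size of the log2 fold change over the square root of its F. Library values were printed for the 6 members of smallest p between dams at 2 weeks, the 4 at 7 weeks, and the 4 largest rises and falls with age in control pups. The values of Slc15a1 and Dpp4 at 7 weeks and of Dpep1, and single-library values of Slc1a1, were added after they were seen. Members and lists were chosen with earlier results of these data known. The procedure was tested on simulated data. Alternatives were DESeq2 1.42.0, its size factors, other filters, the compared groups alone, a replicate block, each library left out, and 3 settings chosen after seeing the data: 2 libraries left out, total counts and enterocyte scaling.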

Additional observations from a re-analysis of the deposited data

Results flagged for a closer look

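In 130 sets of 5 libraries of 1 group and member, 25 had a highest or lowest library whose gap to its neighbour, as a share of the whole range, was past Dixon's 95% limit. Chance passes that limit in about 1 of 20 independent sets of normal values. These sets are not independent, since all members were measured in the same 20 libraries and 1 odd library can be flagged in many members. Control library 5 at 2 weeks held 14 of the 25. It was far above its group in Dpp4 (543 CPM), Enpep (610.3), Mme (535) and Lap3 (336). It was far below its group in Naaladl1 (171 CPM), Xpnpep1 (100.3), Cndp2 (133), Slc1a5 (18.7) and Slc36a1 (13), and likewise in Slc7a7 (43.2), Slc7a6 (3.06), Slc7a5 (2.82), Slc3a2 (113) and Slc43a2 (94.9).

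Periodontitis library 5 at 7 weeks held 6 of them. It was low in Enpep (389 CPM), Mme (948), Cndp2 (316) and Slc15a1 (215) and high in Slc1a1 (20.5) and Slc7a5 (4.31). Control library 5 at 7 weeks was high in Anpep (3147 CPM), Ace (1544) and Slc43a2 (579). Control library 3 at 7 weeks was high in Slc7a5 (4.07 CPM), and control library 4 at 2 weeks in Xpnpep2 (119 CPM).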

How the results depend on the processing

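With edgeR, between dams at 2 weeks the 0 members called became 7 with DESeq2, 3 without control library 5 of 2 weeks and periodontitis library 5 of 7 weeks together, and 3 with enterocyte scaling. At 7 weeks the 0 became 2 without those 2 libraries, and the difference between the ages went from 0 to 4 with DESeq2 and 7 without them. Of all genes, 65 of 19629 were called for that difference with DESeq2 and 159 of 17688 without the 2 libraries. Total counts and enterocyte scaling were chosen after seeing the data. Leaving out 1 library gave 0 to 6 calls between dams at 2 weeks, 0 at 7 weeks, 0 to 4 for the difference, 23 to 27 with age in control pups and 29 to 31 in periodontitis pups. Of the 17650 to 17797 genes tested in these fits, 0 to 387, 0 to 15, 1 to 26, 10013 to 12408 and 10794 to 13378 were called, in that order. The replicate block gave 0, 0, 0, 25 and 30 in that order, where 0, 0, 0, 10412 and 11195 of all 17464 genes were called. Pairing by replicate number was not seen: of 30 pairs with 1 number, 4 correlated above 0.1 (r from -0.397 to 0.288), and in 5 the own number was the best match. With 5 libraries per group this check cannot exclude shared litters or batches. With enterocyte scaling the sign of the age difference turned in control pups for Ace (-0.40), Anpep (-0.39), Cndp2 (-0.057), Dpp4 (-0.66), Enpep (-0.97), Lap3 (-0.70), Mep1b (-0.23), Slc38a2 (-1.15), Slc3a2 (-0.85), Slc43a2 (-0.12), Slc6a19 (-0.086), Slc7a7 (-0.52), Slc7a9 (-0.92) and Xpnpep1 (-0.77). In periodontitis pups it turned for Ace (-0.60), Cndp2 (-0.032), Slc38a2 (-0.83), Slc3a1 (-0.31), Slc3a2 (-0.89), Slc6a19 (-0.089), Slc7a7 (-0.80), Slc7a8 (-0.58), Slc7a9 (-1.34), Xpnpep1 (-0.99) and Xpnpep2 (-0.35). With total counts it turned for Enpep (-0.27), Slc38a2 (-0.53), Slc3a2 (-0.33), Slc7a7 (-0.043), Slc7a9 (-0.35) and Xpnpep1 (-0.29) in control pups. In periodontitis pups it then turned for Slc38a2 (-0.072), Slc3a2 (-0.13), Slc7a7 (-0.024), Slc7a9 (-0.57) and Xpnpep1 (-0.27). The cause was not tested. Depth limits Slc6a14 at 7 weeks and Folh1 at both ages.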
